A study of Mus musculus with 12 samples.

Results

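The intermediate filament genes of neurons were taken by Ensembl identifier from the table of ribosome footprint counts. Of 5 identifiers, 4 were found among the 10481 genes of the table, Nefl (ENSMUSG00000022055), Nefm (ENSMUSG00000022054), Ina (ENSMUSG00000034336) and Prph (ENSMUSG00000023484), and Nefh was not analysed here. The genes were set by identifier and not by a cutoff on a measured value, although earlier results of these data were known.

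Neurofilaments are heteropolymers that fill the axon and set its calibre. Nefl, the light chain, forms the core of the filament, and Nefm, the medium chain, adds a long tail domain that projects from it and is heavily phosphorylated. Ina encodes alpha-internexin, a further subunit of central neurons that appears early in their differentiation, and Prph encodes peripherin, a related filament protein of neurons whose axons leave the central nervous system, such as motor and sensory neurons. Release of the light chain into blood and cerebrospinal fluid is widely followed as a sign of axonal damage in motor neuron disease, SMA included.

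Ribosome profiling counts the mRNA fragments covered by ribosomes, so a gene's footprints depend on its mRNA as well as on the ribosomes each mRNA carries. Brain and spinal cord of the Taiwanese SMA mouse were profiled at E14.5, with 3 libraries for each of the 4 groups. Control embryos were Smn+/-; SMN2tg/0, so they too carried the human SMN2 transgene and were heterozygous for mouse Smn, and SMA embryos were Smn-/-; SMN2tg/0. Because whole tissue was lysed, fewer cells of a type and fewer footprints per cell cannot be told apart.

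On the GRCm38.p6 assembly, RefSeq places Nefl at chr14:68083863-68089095 and Nefm at chr14:68119545-68125004. The 30449 bases between them hold 1 annotated gene, the pseudogene Gm19216, so both neurofilament chains lie side by side. Ina lies at chr19:47014681-47025327 and Prph at chr15:99053579-99058978. The lncRNA A230070E04Rik overlaps Nefm over 1253 bases, and Nt5c2 overlaps Ina over 494 bases. Whether footprints were counted by strand is not given in the sources used here, so reads in these overlaps are uncertain, as are reads from the stretches that the filament genes have in common, since reads with several alignments were kept.

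RefSeq start regions were at hand for Prph and Ina but not for Nefl and Nefm. Those shown were therefore not picked by their levels, and no link between these sequences and the levels was tested. The 250 bases before each start site are given on the plus strand. Capitals mark matches, on either strand, to the letters TATAAA of the TATA box, to CCAAT of the CAAT box or to GGGCGG of the GC box. The regions are chr15:99054924-99055173 for Prph and chr19:47014431-47014680 for Ina, and the start site used for Prph lies inside its annotated span, since it has 6 RefSeq transcripts.
Prph: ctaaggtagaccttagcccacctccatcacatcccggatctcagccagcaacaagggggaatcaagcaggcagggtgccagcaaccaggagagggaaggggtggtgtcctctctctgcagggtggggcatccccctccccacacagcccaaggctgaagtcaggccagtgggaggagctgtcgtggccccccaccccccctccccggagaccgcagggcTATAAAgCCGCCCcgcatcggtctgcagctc
Ina: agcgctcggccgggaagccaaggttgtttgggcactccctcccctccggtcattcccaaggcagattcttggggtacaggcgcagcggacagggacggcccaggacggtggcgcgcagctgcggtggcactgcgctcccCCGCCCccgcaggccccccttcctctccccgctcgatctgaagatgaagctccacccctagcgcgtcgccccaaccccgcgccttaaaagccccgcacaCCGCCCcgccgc

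Prph held 1 match to TATAAA, which began 31 bases before the start site, and Ina held 0. TATAAA was found in 12.4% of 32851 RefSeq start regions of this length. GGGCGG, here on the minus strand, was found in 1 place before Prph and in 2 places before Ina, and in 32.7% of all regions. CCAAT was found in neither and in 33.8% of all regions. A match to these letters describes the sequence and does not show that a factor binds.

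Libraries held 3683842 to 9117017 counts in brain and 5162190 to 12793955 counts in spinal cord. The tissue labels were checked with Hoxc8 and Hoxc10, which mark the trunk. Hoxc8 had 0 to 0.928 normalized CPM in brain and 71.5 to 107 in spinal cord, and Hoxc10 had 0 to 0.558 in brain and 35.1 to 56.7 in spinal cord. Control spinal cord library 1 stood apart from the rest, as it had 160.4 normalized CPM of Top2a, a gene of dividing cells, where the other 5 spinal cord libraries had 21.6 to 40.7. The log2 fold changes of the filament genes that use control spinal cord library 1 are therefore also given without it or as a range over dropped libraries, whereas shares, ranks and the values of other genes include it. Markers of motor neurons, sensory ganglion neurons and Schwann cells were not analysed here for want of names, so the kinds of neuron behind the filament counts were not followed.

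Nefl, Nefm and Prph were far higher in spinal cord than in brain, whereas Ina differed little. These levels are CPM scaled with TMM factors over all 12 libraries, called normalized CPM. Nefl had 72.9, 47.1 and 63.2 normalized CPM in control brain libraries 1, 2 and 3, and 49.5, 52.1 and 76.7 in SMA brain libraries 1, 2 and 3. In spinal cord it had 195, 239 and 270 in the control libraries and 262, 290.0 and 261 in the SMA libraries. Every spinal cord library was thus above every brain library, and within each tissue the genotypes overlapped.

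Nefm had 171, 116 and 153 normalized CPM in control brain and 112, 117 and 166 in SMA brain. In spinal cord it had 433, 570.2 and 626 in the control libraries and 585, 674 and 620.1 in the SMA libraries. The libraries low or high for Nefm were those low or high for Nefl in both tissues.

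Ina had 240.1, 269.8 and 275 normalized CPM in control brain and 259.5, 244 and 317 in SMA brain. In spinal cord it had 199, 259 and 272 in the control libraries and 267, 331 and 308 in the SMA libraries. Brain and spinal cord overlapped for Ina, and the lowest of the 12 values was that of control spinal cord library 1.

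Prph had 8.53, 3.57 and 10.98 normalized CPM in control brain and 3.55, 3.53 and 6.69 in SMA brain, from 13 to 78 counts per library. In spinal cord it had 130.3, 133 and 148 in the control libraries and 133, 138 and 112 in the SMA libraries. Brain and spinal cord were far apart for Prph, and the genotypes overlapped in each tissue.

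**Figure D1:**
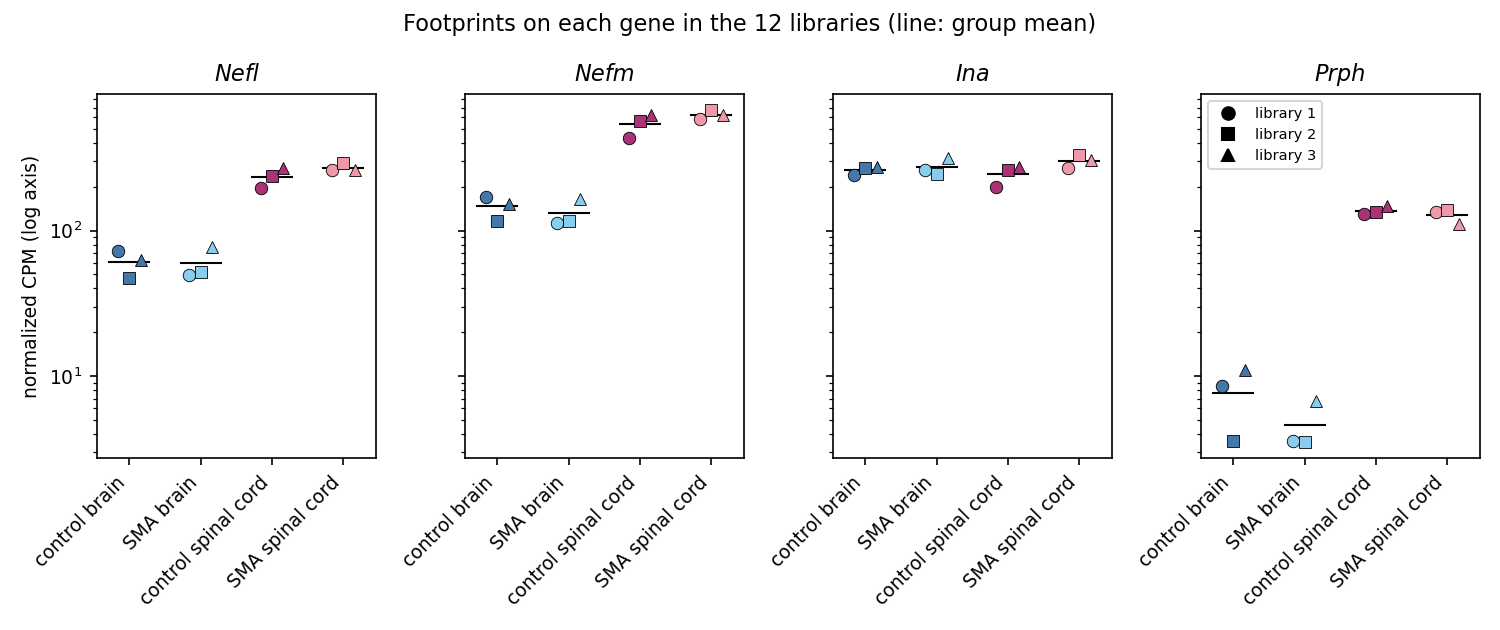
Normalized CPM of Nefl, Nefm, Ina and Prph on a log axis, 1 point per library with its shape giving the library number and a line at the mean of each group of 3. Nefl, Nefm and Prph lie higher in all 6 spinal cord libraries than in all 6 brain libraries, from 195 against at most 76.7 for Nefl, while Ina lies between 199 and 331 in both tissues.

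Tissues were compared by contrasts in 1 edgeR quasi-likelihood fit over the 12 libraries, with Benjamini-Hochberg adjustment over all genes. In control embryos Nefl was 3.82-fold higher in spinal cord, from a mean of 61.0 ± 13.0 normalized CPM (SD, n = 3) in brain to 235 ± 37.6 (SD, n = 3), or 1.93 ± 0.19 as log2 fold change and standard error (edgeR adjusted p = 1.72e-05). Nefm was 3.69-fold higher, from 147 ± 28.0 to 543 ± 99.3 (SD, n = 3), or 1.89 ± 0.18 as log2 fold change and standard error (edgeR adjusted p = 1.59e-05). Prph was 17.8-fold higher, from 7.69 ± 3.77 to 137 ± 9.68 (SD, n = 3), or 4.15 ± 0.27 as log2 fold change and standard error (edgeR adjusted p = 1.32e-06). So 3 of the 4 genes were called higher in control spinal cord at an adjusted p below 0.05, where 20.1% of all genes were. A larger log2 fold change than that of Prph was found in 142 of 10481 genes, and a larger one than that of Nefl in 387. All 10481 genes had passed the FPKM filter of the study. With 13 to 78 counts per brain library, Prph may have passed it through spinal cord alone, so its place among the genes is a description.

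Ina had 262 ± 18.8 normalized CPM (SD, n = 3) in control brain and 244 ± 38.9 (SD, n = 3) in control spinal cord. Its log2 fold change was -0.10 (95% interval -0.39 to 0.19, edgeR adjusted p = 0.56). Without control spinal cord library 1 it was 0.025.

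SMA embryos gave the same 3 calls, where 21% of all genes were called higher in SMA spinal cord. Nefl rose from 59.4 ± 15.0 normalized CPM (SD, n = 3) in SMA brain to 271 ± 16.5 (SD, n = 3) in the cord, or by 2.19 ± 0.19 as log2 fold change and standard error. Nefm rose from 132 ± 29.8 to 626 ± 45.0 (SD, n = 3), or by 2.25 ± 0.19 on the same scale. Prph rose from 4.59 ± 1.82 to 128 ± 13.8 (SD, n = 3), or by 4.83 ± 0.30. The adjusted p-values from edgeR were 7.95e-06, 5.19e-06 and 8.72e-07. Ina had a log2 fold change of 0.14 (95% interval -0.15 to 0.44, edgeR adjusted p = 0.404).

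The 3 calls did not depend on control spinal cord library 1, nor on any other single library. When the 12 libraries were dropped one at a time, the control value ranged between 1.78 and 2.09 for Nefl, between 1.74 and 2.02 for Nefm and between 3.85 and 4.40 for Prph. Col1a1, a collagen of meninges and the 1 of 5 meningeal and vessel markers with a name, moved with the tissue too, at 2.46 to 9.19 normalized CPM in brain and 8.18 to 53.4 in spinal cord. Its part in the difference was not tested.

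**Figure D2:**
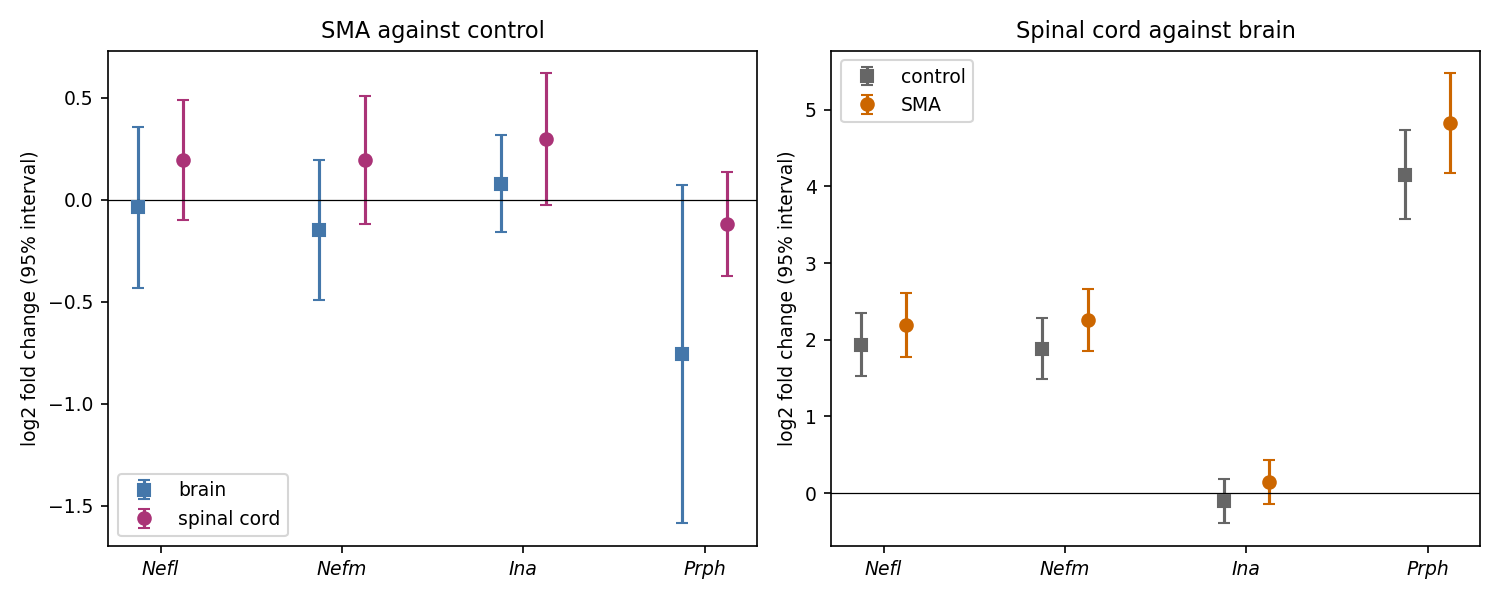
Log2 fold changes with 95% intervals from edgeR for SMA against control in each tissue (left) and spinal cord against brain in each genotype (right), from 3 libraries per group. All 8 intervals on the left include 0, while those of Nefl, Nefm and Prph on the right lie above 0, with Prph highest at 4.15 and 4.83.

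The related genes with a name are given by list, and their counts of genes called higher in control spinal cord stand beside the 20.1% of all genes. General neuronal markers with a name were Map2 and Mapt, which bind microtubules, and Elavl3, which binds RNA. Of these 3 genes, 0 were called higher in control spinal cord and 1 was called lower, Elavl3, at -0.36 ± 0.09 (log2 fold change and standard error, edgeR adjusted p = 0.00561). Nes, the progenitor filament nestin and the 1 of 10 other intermediate filament genes with a name, was lower in control spinal cord, at -1.22 ± 0.11 (log2 fold change and standard error, edgeR adjusted p = 1.3e-05).

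Of 20 genes for the linkage, transport and turnover of neurofilaments, 6 had a name. Called higher in control spinal cord were 2 of the 6, Plec, the cytoskeletal linker plectin, at 1.20 (standard error 0.16, edgeR adjusted p = 0.000138), and Fbxo7, a ubiquitin ligase subunit, at 0.59 (standard error 0.17, edgeR adjusted p = 0.0141). The motor proteins Kif5b, Kif3a and Dync1h1 and the light chain Klc1 did not pass, with log2 fold changes between -0.21 and 0.17. Of 15 kinases and phosphatases of the tail domains, 5 had a name, and 1 was called higher, Mapk9, the kinase JNK2, at 1.02 (standard error 0.13, edgeR adjusted p = 0.000128). The median log2 fold change was 0.14 over the 6 genes and -0.14 over the 5, against 0.0031 over all 10481 genes. With so few named genes, these counts set the lists neither above nor below the 20.1% of all genes.

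The make-up of the 4 genes was compared per length, as counts per base of deposited gene length. This length is the union of the exons and includes untranslated parts. The shares and the size of their changes depend on it, whereas the change in a log2 ratio of 2 genes does not. In brain Ina made up 65.0% ± 4.71 of the summed value (SD, n = 6), Nefm 18.8% ± 2.25, Nefl 13.9% ± 1.73 and Prph 2.36% ± 1.08. In spinal cord Nefm made up 30.9% ± 1.06 (SD, n = 6), Ina 25.7% ± 1.79, Nefl 22.9% ± 0.511 and Prph 20.5% ± 2.88. Ina thus had the largest share among these 4 genes in all 6 brain libraries, at 57.3% to 70.0%. The spinal cord libraries spread their footprints more evenly over the 4. Other filament genes, Nefh included, were outside this sum.

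**Figure D3:**
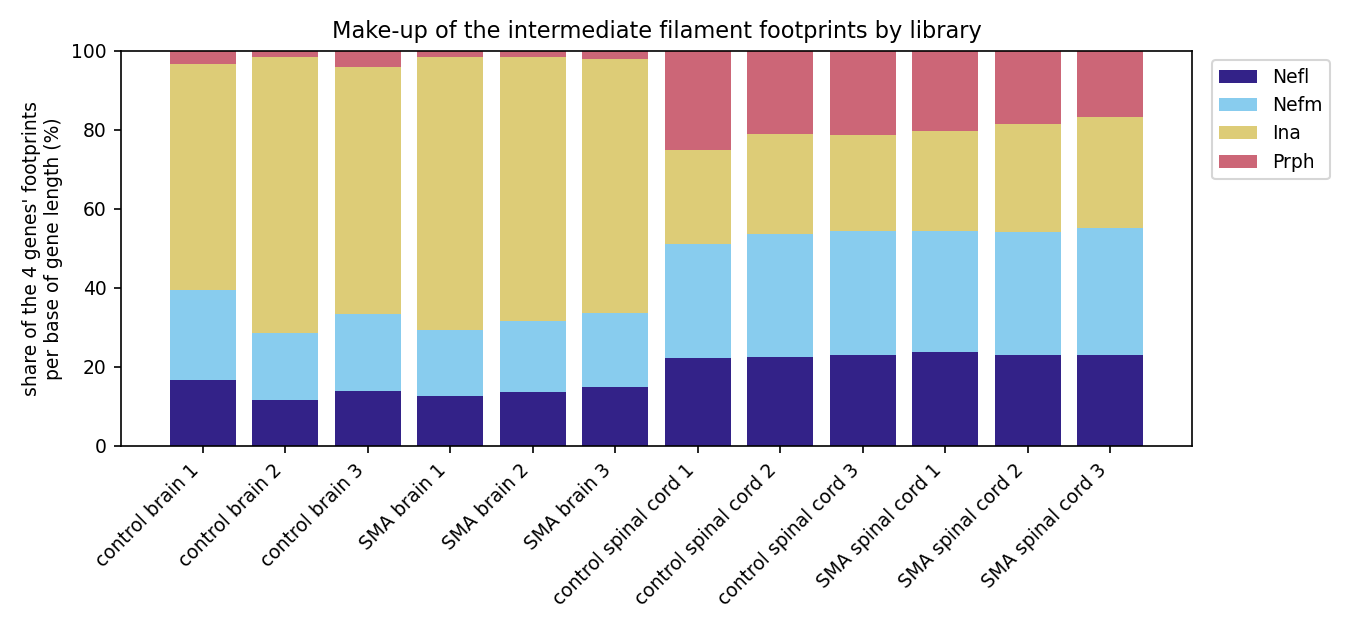
Share of each gene in the summed counts per base of Nefl, Nefm, Ina and Prph, in percent, with 1 bar for each of the 12 libraries. Ina takes 57.3% to 70.0% of every brain bar and 23.7% to 28.3% of every spinal cord bar, and Prph goes from at most 4.05% to at least 16.7%.

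Ranked among all 10481 genes by mean counts per base, Prph went from 9279 in control brain to 963 in control spinal cord. Nefl went from 4562 to 953 and Nefm from 3465 to 595. Ina was 944 in control brain and 839 in control spinal cord. In control spinal cord the order was Nefm, Ina, Nefl and Prph, at 93.9 ± 17.2, 75.2 ± 11.99, 69.5 ± 11.1 and 68.7 ± 4.84 normalized CPM per kilobase (SD, n = 3), and for neighbours in this order the ranges of mean ± SD overlapped. In control brain the order was Ina, Nefm, Nefl and Prph, at 80.8 ± 5.80, 25.3 ± 4.84, 18.1 ± 3.85 and 3.85 ± 1.89 (SD, n = 3), where the ranges overlapped for Nefm and Nefl alone.

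Nefl and Nefm moved together across the 12 libraries. After each gene's log2 normalized CPM was centred on its mean over the libraries, Nefm differed from Nefl by 0.047 on average in absolute value. Each was the nearest to the other of 9780 genes averaging 20 counts or more, where the median gene differed from Nefl by 1.05. Among genes with a name, the next nearest to Nefl were Enpp2, which encodes the secreted enzyme autotaxin, Tmem132e and Sptb, a beta spectrin, at 0.15, 0.16 and 0.18. The nearest to Nefm were Enpp2, Bcan, a proteoglycan of the neural matrix, and Tmem132e, at 0.15, 0.17 and 0.18. Names were at hand for 1925 of these genes, so nearer genes may lack one.

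Ina followed another set. Its nearest named genes were Aplp1, a relative of the amyloid precursor protein, at 0.042, Rtn1, a reticulon of the neuronal endoplasmic reticulum, at 0.062, and Ndufa11, a subunit of respiratory complex I, at 0.064. Aplp1 was the nearest of all 9780 genes. Nefl ranked 9463 and Prph 9725 in likeness to Ina. For Prph the nearest named genes were Skor1, a corepressor of dorsal spinal interneurons, at 0.43, Hoxa4 at 0.52 and Col14a1, a collagen, at 0.54. Skor1 had 6.45 ± 4.1 normalized CPM in control brain and 81.9 ± 39.1 in control spinal cord (SD, n = 3). These lists describe the pattern over libraries that share tissue, depth and scaling.

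**Figure D4:**
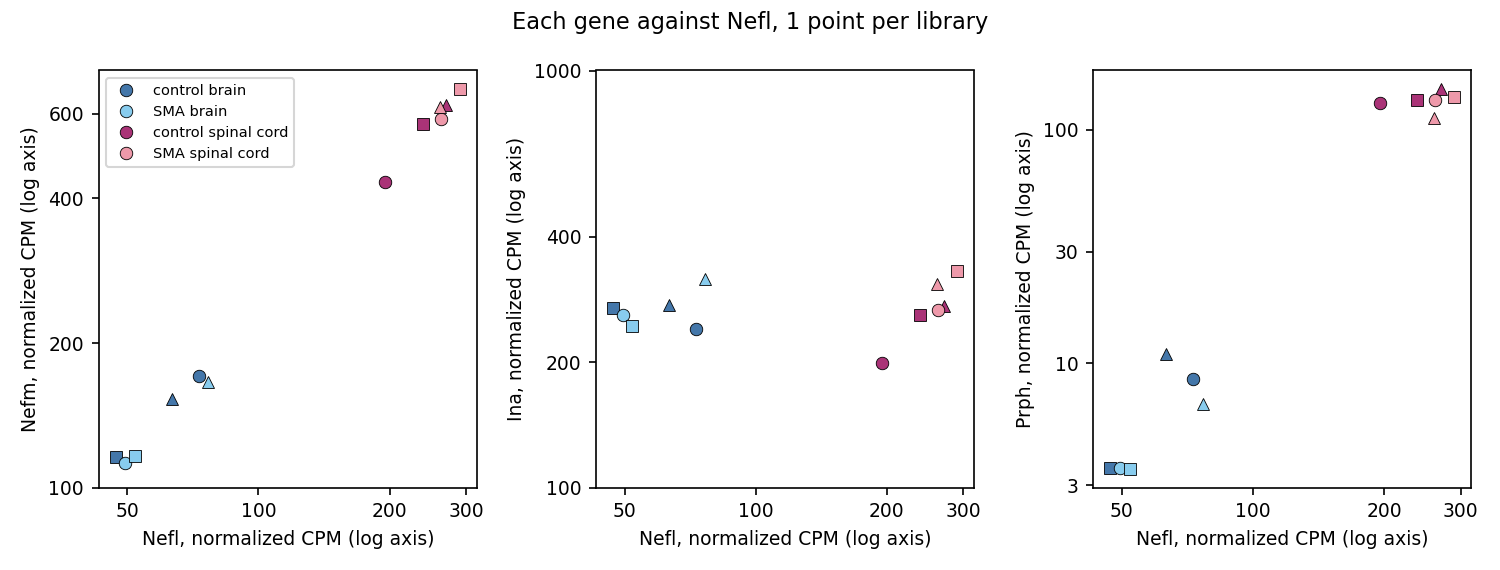
Normalized CPM of Nefm, Ina and Prph against Nefl on log axes, 1 point per library, coloured by group and shaped by library number. Nefm follows Nefl through both tissues with an average gap of 0.047 on the centred log2 scale, while Ina stays between 199 and 331 over the whole range of Nefl and Prph forms a low brain and a high spinal cord set.

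Within a tissue, the pairs of genes were compared over its 6 libraries, 12 relations in all. In brain Nefl and Nefm had Pearson's r = 0.97 (exact permutation p = 0.00972, adjusted 0.0292) and Spearman's rho = 0.89 (exact permutation p = 0.0333, adjusted 0.133), and r was 0.95 without the 2 libraries farthest from the median. In spinal cord they had r = 0.98 (exact permutation p = 0.00278, adjusted 0.0292) and rho = 0.94 (exact permutation p = 0.0167, adjusted 0.1), and r was 0.81 without the 2 farthest. Nefl and Ina had r = 0.37 (exact permutation p = 0.496, adjusted 0.829) and rho = 0.20 (exact permutation p = 0.714, adjusted 0.779) in brain. In spinal cord Nefl and Ina had r = 0.94 (exact permutation p = 0.00833, adjusted 0.0292) and rho = 0.83 (exact permutation p = 0.0583, adjusted 0.175). Without the 2 farthest libraries r was 0.41, but the 4 left are too few to settle how far the relation rested on those 2. Nefm and Ina had r = 0.96 in spinal cord (exact permutation p = 0.00556, adjusted 0.0292) and rho = 0.94 (exact permutation p = 0.0167, adjusted 0.1), and r was 0.69 without the 2 farthest. The relations of Prph did not pass, with a largest r of 0.89, to Nefm in brain (exact permutation p = 0.0889, adjusted 0.2, rho = 0.66 with exact permutation p = 0.175, adjusted 0.35).

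The 3 brain libraries with the lowest Nefl, Nefm and Prph were control library 2 and SMA libraries 1 and 2. Their Nefl was 47.1 to 52.1 normalized CPM, against 63.2 to 76.7 in the other 3, and their Prph was 3.53 to 3.57, against 6.69 to 10.98. Ina did not divide the libraries in this way, at 244 to 269.8 and 240.1 to 317. This was noticed after the values were seen and is a description of the libraries, of which 2 of the 3 low ones were SMA and 1 was control. The variation of Nefl within groups was larger in brain, with a coefficient of variation of 21.3% in control and 25.2% in SMA, than the 10.6% and 9.94% of the median gene.

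Of the 4 genes, 0 passed the thresholds of the study between SMA and control in brain, and 0 in spinal cord. These thresholds ask for an average of 0.05 CPM or more, a log2 fold change of 0.5 or more in size and an unadjusted p under 0.05, and they passed 1.53% of all genes in brain and 0.983% in spinal cord. After Benjamini-Hochberg adjustment of edgeR's p-values, 0 genes of the table were below 0.05 in brain and 0 in spinal cord, and 529 and 733 genes had an unadjusted p below 0.05. With DESeq2 in place of edgeR the number of the 4 genes past the thresholds was likewise 0 in each tissue. There Ina in spinal cord fell short of the fold change alone, at 0.30 (DESeq2 unadjusted p = 0.0283, adjusted p = 0.226).

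In brain the log2 fold change of SMA against control was -0.037 for Nefl (95% interval -0.43 to 0.36), -0.15 for Nefm (-0.49 to 0.20) and 0.078 for Ina (-0.16 to 0.32), with adjusted p-values from edgeR of 0.987, 0.92 and 0.944. For Prph it was -0.76 (95% interval -1.58 to 0.07, unadjusted p = 0.0688 and adjusted p = 0.902 from edgeR), from 7.69 ± 3.77 normalized CPM in control to 4.59 ± 1.82 in SMA (SD, n = 3). The genotypes overlapped, since control library 2 was as low as the lowest SMA libraries. Prph passed the thresholds without control brain library 2, at -1.07, and without SMA brain library 3, at -1.10, and came down to -0.48 without control brain library 3. The sign of Nefl turned when control library 1, or either SMA library 1 or 2, was dropped, with values up to 0.11. Nefm ranged from -0.34 without SMA library 3 (edgeR unadjusted p = 0.0382, adjusted p = 0.996) to -0.027 without control library 1. Col1a1 passed the thresholds as decreased in SMA brain (edgeR unadjusted p = 0.0186, adjusted p = 0.902). It had 4.62 to 9.19 normalized CPM in control and 2.46 to 4.82 in SMA, so the genotypes overlapped. Its brain libraries held only 9 to 84 counts of it.

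In spinal cord the log2 fold change was 0.20 for Nefl (95% interval -0.10 to 0.49), 0.19 for Nefm (-0.12 to 0.51) and 0.30 for Ina (-0.02 to 0.62), with adjusted p-values from edgeR of 0.693, 0.704 and 0.684. Their unadjusted p-values from edgeR were 0.158, 0.187 and 0.0644. Control library 1 gave the lowest value of all 6 libraries for these 3 genes. Without it the values were 0.083, 0.059 and 0.18. Without control library 3 they were 0.307, 0.307 and 0.38, with unadjusted p-values from edgeR of 0.0425, 0.0593 and 0.043 and an adjusted p of 0.625 for each. After a lowess correction of every library for counts per base they were 0.090, 0.056 and 0.18. Control library 1 was also the library with the high Top2a, whose part in these values was not tested. Prph stood at -0.12 (95% interval -0.37 to 0.14, edgeR adjusted p = 0.758), at -0.15 without control library 1 and at -0.026 without SMA library 3. After the lowess correction it was -0.22.

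The genotype effects were also compared between tissues, as the interaction of tissue and genotype in the 12-library fit. It was 0.26 (standard error 0.26) for Nefl, 0.37 (standard error 0.25) for Nefm, 0.25 (standard error 0.19) for Ina and 0.67 (standard error 0.41) for Prph, with an adjusted p of 1 from edgeR for each. None of the 4 genes had an unadjusted p below 0.05, against 2.38% of all genes, and the smallest was 0.128 for Prph. Single libraries moved these values. Without control spinal cord library 1 they were 0.14 for Nefl, 0.23 for Nefm, 0.12 for Ina and 0.64 for Prph. When each of the 12 libraries was dropped, Nefl ranged from 0.10 without control brain library 1 to 0.48 without SMA brain library 3. Nefm reached 0.57 without SMA brain library 3 (edgeR unadjusted p = 0.0342), and Ina reached 0.37 without it. Prph ranged from 0.43 without control brain library 3 to 1.013 without SMA brain library 3 (edgeR unadjusted p = 0.0422), and was 0.98 without control brain library 2 (edgeR unadjusted p = 0.00704). The adjusted p of these 3 values was 1.

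Ratios between the genes in the same library need no scaling factor. Counts per base of Nefm, Ina and Prph were divided by those of Nefl and compared on the log2 scale with 2-sided exact permutation tests, 9 in all. Nefm to Nefl lay between 1.26 and 1.44 in every one of the 12 libraries. Spinal cord and brain differed by -0.0033 in its mean log2 ratio (0.43 ± 0.05 and 0.44 ± 0.07, SD, n = 6 each, exact permutation p = 0.922, adjusted 0.922). Ina to Nefl fell from a log2 ratio of 2.23 ± 0.28 in brain to 0.16 ± 0.10 in spinal cord (SD, n = 6 each), and Prph to Nefl rose from -2.67 ± 0.52 to -0.17 ± 0.22. Both had an exact permutation p of 0.00216, the smallest that 6 libraries against 6 allow, and 0.00974 after adjustment. The test took the 12 libraries as independent, although brain and spinal cord may share embryos, and a paired form was not run.

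Between genotypes 3 libraries against 3 can give no p below 0.1. Groups that do not overlap give just that p, so a lack of overlap adds nothing to it. In brain Nefm to Nefl was 1.37, 1.44 and 1.42 in the control libraries and 1.33, 1.31 and 1.26 in the SMA libraries, so that every SMA library was below every control library. The log2 ratio was 0.49 ± 0.04 and 0.38 ± 0.04 (SD, n = 3), a difference of -0.12 (exact permutation p = 0.1, adjusted 0.225), between -0.14 and -0.096 when 1 library was dropped. In spinal cord the same ratio differed by 0.0026 (exact permutation p = 0.9, adjusted 0.922).

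Prph to Nefl was 1.13, 0.945 and 0.928 in the control spinal cord libraries and 0.861, 0.802 and 0.724 in the SMA libraries, again with no overlap. The log2 ratio went from -0.0050 ± 0.16 to -0.33 ± 0.12 (SD, n = 3), a difference of -0.33 (exact permutation p = 0.1, adjusted 0.225). Without control library 1 it was -0.24, and the other libraries left out gave values down to -0.39. In brain Prph to Nefl differed by -0.62 (exact permutation p = 0.2, adjusted 0.36), with overlap between the genotypes. It was -0.93 without control library 2 and -0.33 without control library 3. Ina to Nefl differed by 0.10 in each tissue, with overlap and exact permutation p-values of 0.8 in brain and 0.3 in spinal cord (adjusted 0.922 and 0.45).

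**Figure D5:**
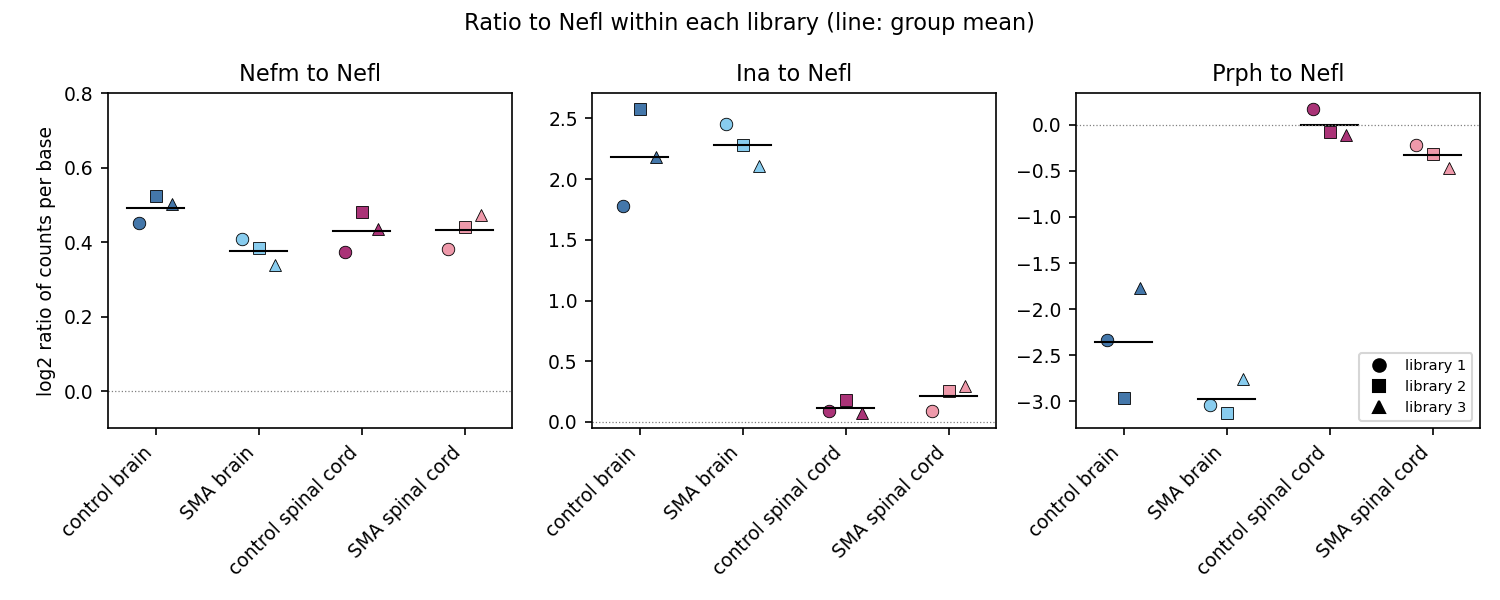
Log2 ratio of the counts per base of Nefm, Ina and Prph to those of Nefl within each library, 1 point per library shaped by its number and a line at the mean of each group of 3. Nefm to Nefl stays between 1.26 and 1.44 as a linear ratio in all 12 libraries, while Ina to Nefl falls and Prph to Nefl rises from brain to spinal cord. The 3 SMA spinal cord libraries lie below the 3 controls for Prph to Nefl (exact permutation p = 0.1, adjusted 0.225).

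Past the thresholds of the study were 0 of the 6 genes of linkage, transport and turnover and 0 of the 5 kinases and phosphatases, in brain and in spinal cord, with list medians between -0.099 and 0.052. Plec had the smallest p of them, with -0.39 ± 0.13 in brain (log2 fold change and standard error, edgeR unadjusted p = 0.00951, adjusted p = 0.902). Map2, Mapt and Elavl3 did not pass either, with values from 0.090 to 0.20 in brain and from 0.12 to 0.37 in spinal cord. Nestin fell short of the required fold change but had an unadjusted p of 0.00934 in brain and 0.00662 in spinal cord (edgeR). SMA against control stood at -0.33 ± 0.11 for Nes in brain and at -0.41 ± 0.11 in spinal cord (log2 fold change and standard error, edgeR adjusted p = 0.902 and 0.684). The normalized CPM of Nes in brain was 349 to 390.3 in control and 248 to 329.7 in SMA. In spinal cord it was 150.2 to 168 in control and 111 to 139 in SMA. The other progenitor markers with a name went in different directions, and neither passed. Top2a was lower in SMA, at -0.19 in brain and at -1.27 in spinal cord, where control library 1 was high. Fabp7 was higher in SMA, at 0.17 in brain and 0.32 in spinal cord.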

How the data were processed

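The deposited table, as the authors made it, holds raw counts of ribosome footprints for each gene and library, with a gene length in bases, for genes that passed their FPKM filter. Per the labels and the study's methods, reads were trimmed with cutadapt 4.1, freed of rRNA and tRNA and aligned with STAR 2.5.3a to GRCm38.p6, with up to 5 alignments kept for a read. Reads at the same transcript position were removed, but the counting tool, its use of strand and whether the counts precede that removal are not given in the sources used here. Such removal would compress the counts of highly covered genes.

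Tests on these counts used edgeR 4.0.16 and limma 3.58.1 under R 4.3.3 (TMM, estimateDisp, glmQLFit in its legacy form, glmQLFTest), with DESeq2 1.42.0 as an alternative. Genotypes were compared within each tissue, as the study did, with factors of its 6 libraries. Tissues and the interaction were compared in a fit over 12 libraries, with 1 mean per group. Tests are 2-sided. The standard error is the unshrunk log2 fold change over the square root of F, and 95% intervals use the t quantile at the total degrees of freedom of the fit. Log2 CPM used a prior count of 2. The scripts were tested on simulated counts. Figures used Python 3.11.15 and matplotlib 3.10.9.

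The members, lists and tests were chosen with earlier results of these data known. Genes named are the members, listed genes with a name, and the 3 nearest named genes of each member. Lists and named genes rest on the 1999 genes whose name was in the part of a supplementary table at hand. Of the fixed marker lists, blood, liver and yolk sac, motor neuron, sensory ganglion and Schwann cell genes had 0 named members. The neural progenitor list had 3 of 8 (Nes, Fabp7 and Top2a). Of the fixed markers, 1 is not reported here.

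The study gives 3 embryos per genotype, and the labels do not say whether brain and spinal cord with the same number came from one embryo. Deviations from group means correlated between same-numbered libraries at 0.345, 0.114 and 0.151 for SMA brain and SMA spinal cord, which met the rule for pairing of over 0.1 in every pair, although for numbers 2 and 3 a library with another number correlated better, at 0.139 and 0.204. They reached -0.142 to 0.024 between genotypes in brain and -0.453 to 0.700 in spinal cord, and 0.00960 to 0.127 between the control tissues, so those were not taken as paired. The chi-square per gene between libraries of a group ranged from 3.997 to 24.5, beyond sampling noise.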

Additional observations from a re-analysis of the deposited data

How the results depend on the processing

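The calls of Nefl, Nefm and Prph as higher in spinal cord held in both genotypes with DESeq2, library size alone, filterByExpr, the replicate block, the trend on counts per base of each library taken out, the 6 libraries of a genotype alone, and each library left out. Their log2 fold changes stayed between 1.87 and 4.89 over the settings other than left-out libraries. The replicate block changed no call between the SMA tissues. With the trend taken out, Ina turned to 0.12 in control and passed as higher in SMA spinal cord, at 0.29 (edgeR adjusted p = 0.0307, 0.0307 to 0.415 over its alternatives), and the cause was not tested. Past the thresholds of the study in SMA brain were 0 of the 4 genes, but 1 (Prph) in a fit over all 12 libraries, at -0.78. Prph also passed with the replicate block, at -0.69. That block joined control and SMA libraries by number, although they are different embryos and were not taken as paired, so this call adds no support. The count in SMA brain lay between 0 and 1 with each library left out, as 1 without control brain library 2 or SMA brain library 3. In SMA spinal cord the count was 0 under every alternative. For Ina this rested in part on the fold change asked for. Over the settings other than left-out libraries, its log2 fold change there was 0.18 to 0.31. The unadjusted p from edgeR or DESeq2 was 0.00894, with the replicate block, to 0.0961, and the adjusted p 0.226 to 0.792. Leaving out a library moved Nefl between -0.26 and 0.11 and Ina between -0.040 and 0.16 in SMA brain, Nefm there between -0.34 and -0.027, Prph between -0.18 and -0.026 in SMA spinal cord, and Ina between -0.19 and 0.025 for the control tissues. It moved Nefm to Nefl between -0.023 and 0.014 for tissues and between -0.026 and 0.028 in SMA spinal cord, and Ina to Nefl between -0.10 and 0.30 and Prph to Nefl between -0.93 and -0.33 in SMA brain. Ratios with the coding length of each protein were not run for want of protein sequences, and a pseudocount of 0.5 changed no sign. Counts of 13 to 78 limit Prph in brain, and 3 libraries a group limit every comparison of genotypes.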
